A study of Mus musculus with 69 samples.

Results

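Unstimulated bone marrow-derived macrophages (BMDMs) of the inbred mouse strains BALB/cJ (BALB) and C57BL/6J (C57) were compared by RNA sequencing (RNA-seq), 3 libraries of each strain. The comparison was defined by strain and condition alone: the 3 basal BALB and the 3 basal C57 libraries of a 5-strain table were taken, 6 of the 69 samples of the series. BMDMs are grown from bone marrow of young adult female mice in macrophage colony-stimulating factor (M-CSF), for 7 days by the labels. The study's methods describe conditioned medium as its first source, with recombinant M-CSF added later and used alone after reseeding. All the cells described here, basal or stimulated, share this differentiation. Neither strain carried an engineered allele. Used beside these 6 libraries were 3 BALB and 3 C57 libraries made after 24 hours of interleukin-4 (IL-4) at 20 ng/ml, 8 basal libraries of 3 further strains, namely NOD/ShiLtJ, PWK/PhJ and SPRET/EiJ (written NOD, PWK and SPRET), and 2 basal C57 libraries of a separate time course.

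Macrophages take up and digest dying cells and microbes, display peptides on major histocompatibility complex (MHC) molecules, secrete complement components and sense interferons. The cells of different inbred strains differ in these functions before any stimulus. Such differences set the starting point from which a response to IL-4, the cytokine that drives alternative activation, is counted. C57 is the strain of the mouse reference genome, whereas BALB differs from it by many single-base and short insertion or deletion variants, some of which inactivate genes.

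The depth was 7.61 to 18.0 M tags (M, mega) in the C57 libraries and 13.8 to 19.0 M tags in the BALB libraries. Within a strain the libraries correlated at 0.990 or better in C57 and 0.993 or better in BALB across genes, on the log2(TPM + 1) scale, where TPM is a level scaled for transcript length and library depth. The first principal component held 78.1% of the variance among the 6 libraries and separated the strains. The second held 9.21% and mainly set C57 replicate 2 apart, which was also the shallowest of the 6 and had 3943 TPM of the ribosomal precursor Rn45s, against 247 and 308 TPM in the other C57 libraries. No source used here says whether the replicates came from separate mice or cultures, so each p-value measures only the spread between replicate libraries. For each gene this spread was pooled over all 29 libraries fitted, basal and IL-4, and not taken from these 6 alone. The macrophage label fitted the RNA: Adgre1, which encodes F4/80, was at 489 ± 37.3 TPM in C57 against 593 ± 50.0 TPM in BALB (mean ± SD, n = 3 each, as for all values given this way), and the lysosomal protein gene Cd68 was at 2636 and 3115 TPM.

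BALB and C57 BMDMs differed at rest by more than 2-fold in 573 of 11907 genes tested. Of these, 315 were higher in BALB (2.65% of all genes tested) and 258 were lower (2.17%), or 4.81% in either direction. A gene was called when its BALB minus C57 difference on the log2(TPM + 1) scale was over 1, a 2-fold change, at an adjusted p under 0.05 in limma. On this scale the fold of a gene near 1 TPM is understated. Small differences were far more common, since 5143 genes (43.2%) passed the adjusted p alone, 2956 of them higher and 2187 lower in BALB, while the median difference over all genes tested was only 0.04. Counts of list members at the adjusted p alone, given below, are to be read beside these. The share of all genes at an unadjusted p under 0.05 is not given here, so such counts have no background beside them. More than 4-fold differences were found for 63 genes higher and 65 lower in BALB, and more than 16-fold differences for 13 in each direction. Among genes with a mean of at least 100 TPM, 81 of 953 (8.50%) were called. In 558 of the 573 called genes the 3 BALB and 3 C57 values did not overlap, which also held for 5639 (47.4%) of all genes tested. Without C57 replicate 2, 325 genes were higher and 246 lower in BALB. With the fit limited to the libraries compared, 310 were higher and 244 lower.

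**Figure D1:**
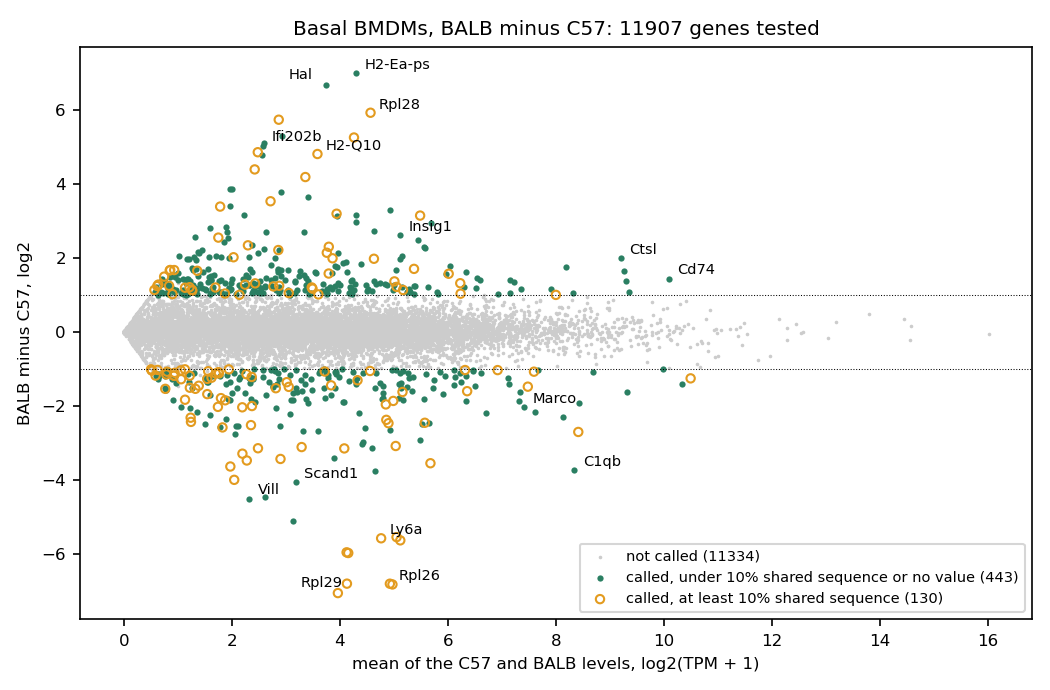
BALB minus C57 difference on the log2 scale (vertical axis) against the mean basal level in log2(TPM + 1) (horizontal axis), 1 point per gene tested. Green points are called genes, open orange points are called genes in which at least 10% of the sequence is shared with other genes (130 genes), and grey points were not called. Dotted lines mark a 2-fold difference. H2-Ea-ps and Hal lie at the top, and several ribosomal protein genes lie among the extremes on both sides.

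The genes of MHC class II antigen presentation were higher in BALB. These molecules present peptides from the endosome to CD4 T cells, and resting macrophages express them at a modest level that interferon-gamma raises through the coactivator CIITA. Of 10 such genes tested, 6 rose past the 2-fold threshold in BALB and none fell, and the median difference of the list was 1.19 against 0.04 over all genes. Their core promoters hold a conserved set of boxes bound by RFX and NF-Y, of which the Y box, the NF-Y site, can be read directly. The RefSeq promoter windows of 3 of the called genes are shown here because they hold the letters CTGATTGG, in capitals, at nearly the same place. The letters begin 51 bases before the start of H2-Aa, 62 before that of H2-Eb1 and 46 before that of H2-Oa. Each window runs from 250 bases before to 50 bases after the gene's start, 5′ to 3′ on the gene's strand, in assembly GRCm38.p6 (mm10), which is C57 sequence.
H2-Aa, chr17:34287774-34288073, minus strand: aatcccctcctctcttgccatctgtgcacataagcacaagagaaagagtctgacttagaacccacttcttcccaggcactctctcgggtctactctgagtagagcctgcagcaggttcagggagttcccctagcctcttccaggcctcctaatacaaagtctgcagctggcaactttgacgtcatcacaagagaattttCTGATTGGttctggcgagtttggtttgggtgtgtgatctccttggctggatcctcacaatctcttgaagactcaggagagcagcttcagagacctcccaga
H2-Eb1, chr17:34305617-34305916, plus strand: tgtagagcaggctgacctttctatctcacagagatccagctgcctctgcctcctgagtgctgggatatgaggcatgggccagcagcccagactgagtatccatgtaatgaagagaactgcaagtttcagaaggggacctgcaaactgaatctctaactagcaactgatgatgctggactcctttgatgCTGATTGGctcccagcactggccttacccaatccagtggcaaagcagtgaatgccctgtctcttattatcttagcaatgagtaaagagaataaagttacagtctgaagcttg
H2-Oa, chr17:34092129-34092428, plus strand: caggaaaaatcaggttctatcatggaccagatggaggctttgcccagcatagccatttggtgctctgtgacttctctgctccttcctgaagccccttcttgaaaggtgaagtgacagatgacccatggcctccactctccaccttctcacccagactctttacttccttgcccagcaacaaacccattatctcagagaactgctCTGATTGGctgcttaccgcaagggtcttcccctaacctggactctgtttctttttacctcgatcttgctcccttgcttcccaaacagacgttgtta

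The table of promoters held 6 of the 10 class II genes tested, and 3 of these had the letters on either strand, all 3 of them called. Over all 32851 promoters in the table, 1346 (4.1%) held them. This is a description of letters in the C57 reference. The BALB sequence of these windows was not read.

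H2-Aa, the alpha chain of I-A, was at 156, 168 and 149 TPM in the C57 libraries and at 529, 550 and 526 TPM in the BALB libraries. The lowest BALB library was over 3 times the highest C57 library, and the difference was 1.76 ± 0.05 (SE) with an adjusted p of 7.6e-20. Its partner H2-Ab1, the I-A beta chain, was at 221 ± 8.37 TPM in C57 against 456 ± 26.1 TPM in BALB, a difference of 1.04. H2-Eb1, the I-E beta chain, was at 93.1 ± 3.45 and 237 ± 4.95 TPM (1.34). Cd74, the invariant chain that occupies the peptide groove during assembly, was at 659, 652 and 684 TPM in C57 and at 1788.5, 1830.5 and 1802.5 TPM in BALB, a difference of 1.44 with an adjusted p of 3.3e-18. H2-Oa, a chain of the peptide-editing modulator H2-O, was low in both strains, at 3.04, 3.20 and 3.30 TPM in C57 and 10.6, 10.0 and 10.8 TPM in BALB (1.46). The coactivator gene Ciita itself was at 1.71 ± 0.274 TPM in C57 against 3.73 ± 0.609 TPM in BALB, a difference of 0.80 that passed the adjusted p (5.6e-06) but not the fold. The editing chains H2-DMa (0.57) and H2-DMb1 (0.20) and the second H2-O chain H2-Ob (0.55) also passed the adjusted p without reaching 2-fold, so that all 10 genes were higher in BALB at an adjusted p under 0.05.

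The largest rise of any called gene in BALB was that of H2-Ea-ps (chr17:34342212-34344645), the I-E alpha chain. C57 mice are known to carry a deletion at the start of this gene that abolishes the I-E molecule, and the annotation names it a pseudogene for that reason. The C57 libraries held 1.02, 0.858 and 0.425 TPM and the BALB libraries 232, 216 and 221 TPM. The difference was 7.00 ± 0.14 with an adjusted p of 1.1e-22, and it follows the strain labels. Nnt, the mitochondrial transhydrogenase in which C57BL/6J is known to carry a partial deletion, was also lower in C57. It was at 3.13, 2.85 and 3.08 TPM in C57 and 13.3, 11.3 and 12 TPM in BALB (1.72). A low level was not particular to C57, since the basal means were 3.13 TPM in NOD, 6.05 TPM in PWK and 14.6 TPM in SPRET. The 2 basal C57 libraries of the time course, normalized separately, held 8.72 and 9.47 TPM of Nnt, nearer to BALB, and 0 TPM of H2-Ea-ps.

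**Figure D2:**
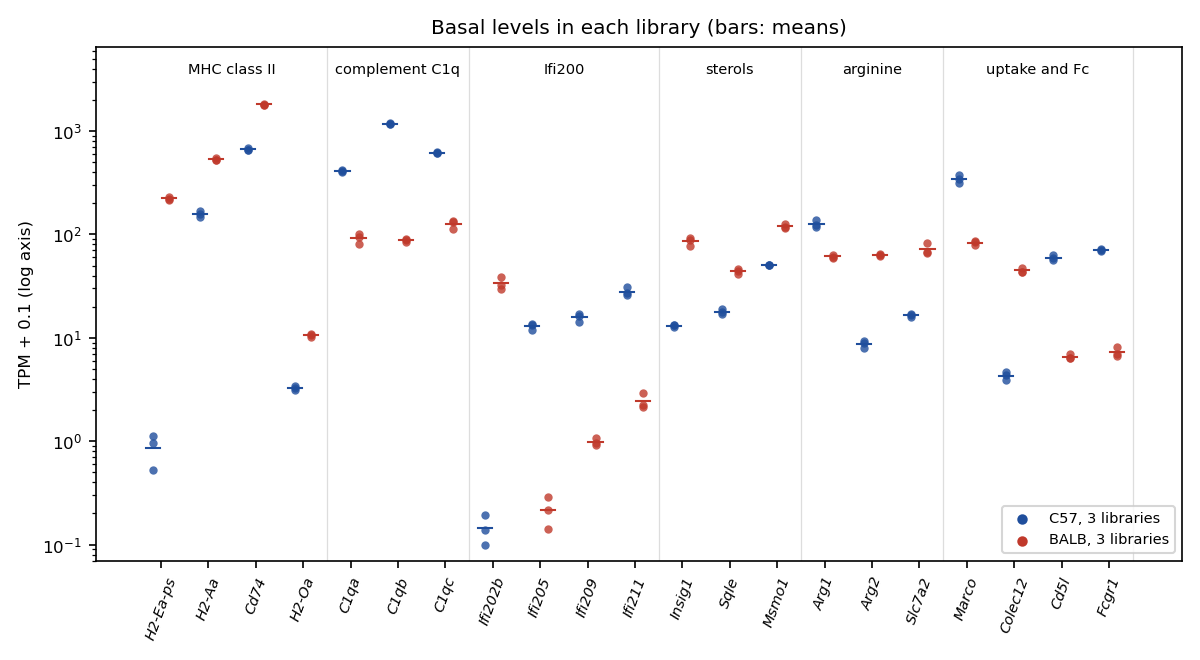
Level of 21 genes in each basal library, as TPM + 0.1 on a log axis, grouped as MHC class II, complement C1q, Ifi200 family, sterol, arginine, and uptake and Fc receptor genes. Each point is 1 library, blue or red by strain as in the key, and the short bars are means of 3 libraries. The libraries of the strains separate for every gene shown, with the class II and sterol genes higher in BALB and the C1q genes higher in C57.

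MHC class I genes did not move as a group. Of 30 class I and peptide-loading genes, 8 were higher and 1 was lower in BALB, with a median difference of -0.00. The classical heavy chains H2-K1 (2745 ± 15.3 TPM in C57, 2538 ± 108 TPM in BALB) and H2-D1 (3025.5 ± 157 and 2896 ± 19.7 TPM), which present peptides to CD8 T cells, differed by -0.11 and -0.06. B2m, the light chain, differed by -0.15. The 1 lower gene was Cd1d1, which presents lipids, and the higher genes were nonclassical members of the Q, T and related blocks. H2-Q1 was at 0.044, 0 and 0.066 TPM in C57 and at 26.8, 32 and 28.8 TPM in BALB (4.86), and H2-Q10, which encodes a secreted molecule, was at 1.20, 1.59 and 1.04 TPM against 45.9, 63.6 and 84.3 TPM (4.81). Of the 9 called class I genes, 7 shared at least 10% of their 50-base stretches with other genes, among them H2-Q1 with 15% and H2-Q10 with 19.0%, so reads could be divided between copies. Among the 18 class I genes with less shared sequence or no value, 2 were higher in BALB and none was lower. H2-Q8, 1 of these 2, had no value and overlaps H2-Q6 in the genome with levels in a constant ratio. C57 is also the strain from which the annotated copies come, and the number of copies in BALB was not measured here.

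The 3 chains of C1q, the recognition molecule of the classical complement pathway, which also tags dying cells for uptake, were lower in BALB. C1qb was at 1179, 1161 and 1201 TPM in C57 and 84.9, 90.6 and 89.1 TPM in BALB, a difference of -3.73 ± 0.14 with an adjusted p of 7.8e-17. C1qc was at 626, 616 and 615 TPM in C57 and 112, 134 and 132 TPM in BALB (-2.29). C1qa was at 400, 410 and 419 TPM against 80.6, 99.8 and 94.9 TPM (-2.15). The 3 genes lie side by side on chromosome 4, between chr4:136880145-136886177 (C1qb) and chr4:136895916-136898844 (C1qa), and none shares a 50-base stretch with another gene. Across 16 complement genes tested, 4 were higher and 5 lower in BALB, with a median of -0.02. The anaphylatoxin receptors C5ar1 (31.2 ± 2.35 TPM in C57, 11.2 ± 1.04 TPM in BALB, -1.41) and C3ar1 (144 ± 9.36 and 65.9 ± 4.97 TPM, -1.12) fell with C1q. The higher genes included C1s1, C2 and the complement receptor chain Itgax, of which C1s1 and C2 share 21.9% and 38.7% of their stretches with other genes. The central component C3 was at 279 ± 22.8 and 300 ± 26.0 TPM and was not called.

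Genes of the interferon response differed in both directions, mostly downwards. The Ifi200 family encodes DNA-binding proteins of the nucleus and cytosol, including the DNA sensor AIM2, and lies in 1 cluster on chromosome 1. Of 11 members tested, 1 was higher and 7 were lower in BALB, with a median of -1.18. Ifi202b (chr1:173962569-173982844) was at 0, 0.093 and 0.037 TPM in C57 and at 38.5, 32.2 and 29.7 TPM in BALB (5.04, adjusted p 9.4e-23), and C57 is known to lack its transcript. Ifi205 was at 13.2, 13.6 and 11.8 TPM in C57 and 0.188, 0.042 and 0.114 TPM in BALB (-3.64). Ifi209 was at 15.7 ± 1.47 and 0.884 ± 0.0827 TPM (-3.14), and Ifi211 at 27.9 ± 2.56 and 2.35 ± 0.433 TPM (-3.11). Aim2 itself was at 14.6 ± 1.64 and 15.3 ± 1.31 TPM and was not called. All but 3 members share at least 10% of their stretches with other genes, and of those 3, 1 was higher and 1 was lower.

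Among 50 interferon-stimulated antiviral genes, 3 were higher and 6 lower in BALB by more than 2-fold, and the median was -0.43. At the adjusted p alone, 38 were lower and 5 higher. Ifit3, which binds foreign RNA with its relatives, was at 56.0, 57.1 and 54.8 TPM in C57 and 17.1, 13.3 and 11.1 TPM in BALB (-1.96), with 51.2% of its sequence shared. Apobec3, a cytidine deaminase that restricts retroviruses, was at 46.1, 59.3 and 48.5 TPM in C57 and 15.6, 14 and 12.5 TPM in BALB (-1.80). The pair Ifi44 and Ifi44l went the other way. Ifi44l was at 0, 0 and 0.052 TPM in C57 and at 18.0, 14.7 and 10.0 TPM in BALB (3.87), and Ifi44 was at 9.53, 9.55 and 8.23 TPM against 36.5, 29.1 and 25.1 TPM (1.62). Of 15 interferon-inducible GTPases, which attack the vacuoles of intracellular parasites, 2 were higher and 1 lower. Gbp2b rose from 0.125, 0.119 and 0.141 TPM in C57 to 35.4, 28.7 and 26.3 TPM in BALB (4.77), and Gbp10 was near 0 in C57 and at 1.86 to 2.79 TPM in BALB (1.68, with 84.1% of its sequence shared). Irgm2 was lower at -1.01, and its call was lost without C57 replicate 1 or 2 or BALB replicate 2 or 3 (-0.96 to -0.99). The Trim genes of chromosome 7, relatives of the retroviral restriction factor TRIM5, held 4 lower members of 11 and none higher. Trim12a led them, at 14.8, 16.2 and 15.6 TPM in C57 and 0.1, 0 and 0 TPM in BALB (-4.0), with 10.4% of its sequence shared. Among the 6 Trim genes with under 10% shared sequence or no value, 1 was lower.

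Genes of sterol synthesis were higher in BALB throughout. The pathway makes cholesterol from acetyl-CoA under the transcription factor SREBP2, which the protein INSIG1 retains in the endoplasmic reticulum when sterols are plentiful. Of 23 such genes tested, 9 rose more than 2-fold and none fell, all 23 differences were above 0, and 22 of them passed the adjusted p. The median was 0.89, against 0.04 over all genes. Insig1 (chr5:28071412-28078662), itself a target of SREBP2, was at 13.2, 13.1 and 12.5 TPM in C57 and 89.0, 76.4 and 91.5 TPM in BALB, a difference of 2.63 ± 0.07 with an adjusted p of 7.1e-21. Sqle, squalene epoxidase, was at 17.9 ± 1.07 and 44.1 ± 2.39 TPM (1.26), and Msmo1, a demethylating oxidase of the later steps, at 50.6 ± 0.472 and 119 ± 6.12 TPM (1.22). Srebf2, which encodes SREBP2, was at 31.6 ± 4.29 and 39 ± 1.38 TPM (0.30), and passed the adjusted p but not the fold.

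Genes that handle arginine, the substrate shared by arginase and nitric oxide synthase, differed by member. Of 17 arginine and polyamine genes, 2 were higher and 1 was lower in BALB. Arg2, the mitochondrial arginase, was at 9.25, 7.94 and 8.87 TPM in C57 and 64.7, 62.1 and 62.7 TPM in BALB, a difference of 2.73 ± 0.06. Slc7a2, a transporter of cationic amino acids, was higher in BALB (2.06), and the cytosolic arginase Arg1 was lower, at 124, 117 and 137 TPM in C57 and 59.7, 60.6 and 63.1 TPM in BALB (-1.03). The Arg1 call rested on C57 replicate 3, without which the difference was -0.97.

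Across 32 genes of alternative activation, 3 were higher and 2 lower in BALB before any IL-4, with a median of -0.14. Chil3, the secreted chitinase-like protein Ym1, was at 63.6, 71.2 and 61.3 TPM in C57 and 11.8, 12.5 and 11 TPM in BALB (-2.38), with 26.9% of its sequence shared with relatives. The transcription factor gene Irf4 (1.30) and the chemokine gene Ccl22 (1.44) were higher in BALB, both below 4 TPM. Of 19 genes of the IL-4 receptor and its signalling, Socs3, a feedback inhibitor of cytokine receptors, was the 1 called, at 54.1, 59.8 and 52.7 TPM in C57 and 25.2, 25.3 and 24.9 TPM in BALB (-1.11). The receptor chain gene Il4ra was at 35.2 ± 3.09 TPM in C57 against 18.6 ± 0.766 TPM in BALB, a difference of -0.88 with an adjusted p of 4.9e-12, just short of the fold. Stat6, the factor that carries the IL-4 signal to the nucleus, differed by -0.26 and Il2rg, the shared receptor chain, by -0.04. Egr2, a transcription factor induced by IL-4, was at 14.4, 13.1 and 12.5 TPM in C57 and 18.4, 16.8 and 17.4 TPM in BALB (0.37), and the homeobox gene Msx3 differed by 0.38. Neither was called.

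Among receptors for antibody and debris a few members differed widely. Fcgr1, the high-affinity IgG receptor, was at 70.2 ± 1.93 TPM in C57 and at 8.07, 6.93 and 6.52 TPM in BALB (-3.13, adjusted p 4.7e-20), and Fcgr4 was at 59.8, 60.1 and 66.2 TPM against 27.4, 25.8 and 24.5 TPM (-1.23). These were the 2 called genes of 9 Fc receptor genes tested, and the summed level of the list was slightly higher in BALB (3122 to 3211 TPM) than in C57 (2912 to 3096 TPM). Of 27 scavenger and dead-cell receptors and ligands, 3 were lower and 1 was higher, and at the adjusted p alone 15 were lower and 8 higher. Marco, a receptor for bacteria and particles, was at 342, 315 and 376 TPM in C57 and 78.2, 86.6 and 85.1 TPM in BALB (-2.03). Cd5l, a secreted scavenger protein of tissue macrophages, was at 58.7, 63.8 and 56.4 TPM against 6.21, 6.90 and 6.31 TPM (-3.02). The collectin receptor Colec12 was the 1 that rose, at 4.22, 3.78 and 4.59 TPM in C57 and 47.7, 43.2 and 43.4 TPM in BALB (3.14). C-type lectins held 2 higher and 2 lower members of 24. Clec4n, which encodes the fungal receptor dectin-2, was at 284, 270 and 294 TPM in C57 and 98.3, 87.2 and 90.5 TPM in BALB (-1.61).

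The Ly6 proteins are small lipid-anchored surface antigens whose Ly6a member, Sca-1, is known to be expressed differently between strains. Of 5 tested, 3 were lower in BALB and none was higher, and the median was -1.41. Ly6a was at 179, 191 and 192 TPM in C57 and 3.50, 3.09 and 2.31 TPM in BALB (-5.58, adjusted p 1.4e-20), with 19.0% of its sequence shared. Ly6c2, a marker of inflammatory monocytes, was at 25.3, 22.7 and 22.9 TPM against 1.52, 1.76 and 0.690 TPM (-3.43), and Ly6i differed by -1.41. Of 27 paired immunoglobulin-like and SIRP receptors, 4 were higher and 4 lower. The highest fold among them belonged to Pira6 (3.64), a member of a family of close copies for which shared sequence could not be measured. Pira1 and Pira11, both among the higher, overlap in the genome with levels in a constant ratio.

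Chemokine genes and their receptors moved in both directions. Of 23 chemokine genes, 4 were higher and 5 lower in BALB, with a median of -0.34. Cxcl10, an interferon-induced attractant of T cells, was at 9.88, 9.30 and 9.06 TPM in C57 and 0.966, 0.671 and 0.752 TPM in BALB (-2.54). The monocyte attractants Ccl7 (-1.82) and Ccl2 (-1.66) were lower as well, and Ccl2 varied among the C57 libraries, at 9.99, 4.79 and 8.41 TPM, all above the BALB values of 1.88, 1.92 and 1.26 TPM. Cxcl14 rose from 0.145, 0.092 and 0.181 TPM in C57 to 7.00, 7.18 and 6.83 TPM in BALB (2.81). Of 12 receptors for chemoattractants, 4 were lower and 2 higher. Fpr1, the receptor for bacterial formyl peptides, was at 44.1, 40.2 and 44.8 TPM against 9.73, 8.55 and 7.63 TPM (-2.20). Ccrl2, an atypical receptor that presents chemerin, was at 49.1, 41.9 and 44.7 TPM in C57 and 149, 141 and 135 TPM in BALB (1.63). The prostaglandin-producing enzyme gene Ptgs2 was higher in BALB, at 29, 25.8 and 27.1 TPM against 8.28, 6.19 and 7.96 TPM (1.75), whereas classical activation genes as a whole had 3 higher and 4 lower members of 23. None of 22 Toll-like receptor and adaptor genes was called in limma, although 13 had an unadjusted p under 0.05. At the adjusted p alone 5 were higher and 6 lower, where 43.2% of all genes tested passed. The most abundant of these, Cd14, was at 545, 534 and 575 TPM in C57 and 602, 577 and 610 TPM in BALB (0.11).

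Lysosomal enzyme genes leaned higher in BALB. Of 38, 4 were higher and 2 lower by more than 2-fold, and 27 were higher and 6 lower at the adjusted p alone, with a median of 0.32. The summed level was 46120 to 46426 TPM in the C57 libraries and 56195 to 57480 TPM in the BALB libraries. Ctsl, a cysteine protease that trims the invariant chain in some cells, was at 288, 295 and 296 TPM in C57 and 1236, 1132 and 1150 TPM in BALB (2.00, adjusted p 4.7e-21). Ctsh, an aminopeptidase of the same family, went the other way, at 214, 228 and 226 TPM in C57 and 47.1, 48.7 and 46.8 TPM in BALB (-2.20). The protease genes Ctse (1.98) and Ctsf (1.22) and the glucosidase gene Gaa (1.05) were higher in BALB, and Akr1b8, the other lower gene, is an aldo-keto reductase and not a lysosomal hydrolase.

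Genes of oxidative phosphorylation differed little as a group, whereas glycolysis genes leaned higher in BALB. None of 43 oxidative phosphorylation genes was called, with a median of 0.02. At the adjusted p alone in limma 12 of them were higher and 11 lower, where 43.2% of all genes tested passed. At an unadjusted p under 0.05 there were 26. With C57 replicate 2 or BALB replicate 2 or 3 left out, 1 was called lower. Cox4i1, a subunit of cytochrome oxidase, was at 1017, 914 and 1103 TPM in C57 and 1087, 1164 and 1136 TPM in BALB (0.16). Of 28 glycolysis genes and targets of the hypoxia-inducible factor, 3 were higher and none was lower. At the adjusted p alone 15 were higher and 4 lower, with a median of 0.19. Their summed level was 10925 to 11726 TPM in C57 and 12313 to 12640 TPM in BALB. Eno2, an enolase, was at 17.5, 18.9 and 16.1 TPM in C57 and 147, 141 and 139 TPM in BALB (2.96). The stress-response gene Ndrg1 (1.47) and hexokinase 2, Hk2 (1.16), were higher too. The cell cycle list held 1 called gene of 39, the transcription factor gene E2f2, at 13.3, 13.7 and 13.0 TPM in C57 and 2.36, 2.56 and 2.48 TPM in BALB (-2.05). Among 41 antioxidant and glutathione genes, 2 were higher and 2 lower. The glutathione transferase gene Gstm2 was at 52.4, 48.6 and 50.9 TPM in C57 and 0.509, 0.643 and 0.353 TPM in BALB (-5.11).

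The gene Hal (chr10:93488768-93516761), whose product histidase opens histidine breakdown, was at 0.447, 0.242 and 0.288 TPM in C57 and 145, 135 and 123 TPM in BALB. The difference was 6.68 ± 0.07 with an adjusted p of 1.5e-28. The villin-like gene Vill was at 23.3, 21.4 and 24.2 TPM in C57 and 0.026, 0.069 and 0.063 TPM in BALB (-4.51), and the tetraspanin gene Tspan32 was at 29.2, 26.1 and 28.5 TPM against 0.336, 0.297 and 0.291 TPM (-4.47). A V-ATPase subunit gene, Atp6v0e2, was at 0.258, 0.098 and 0.310 TPM in C57 and 51.3, 46.0 and 43.3 TPM in BALB (5.29).

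**Figure D3:**
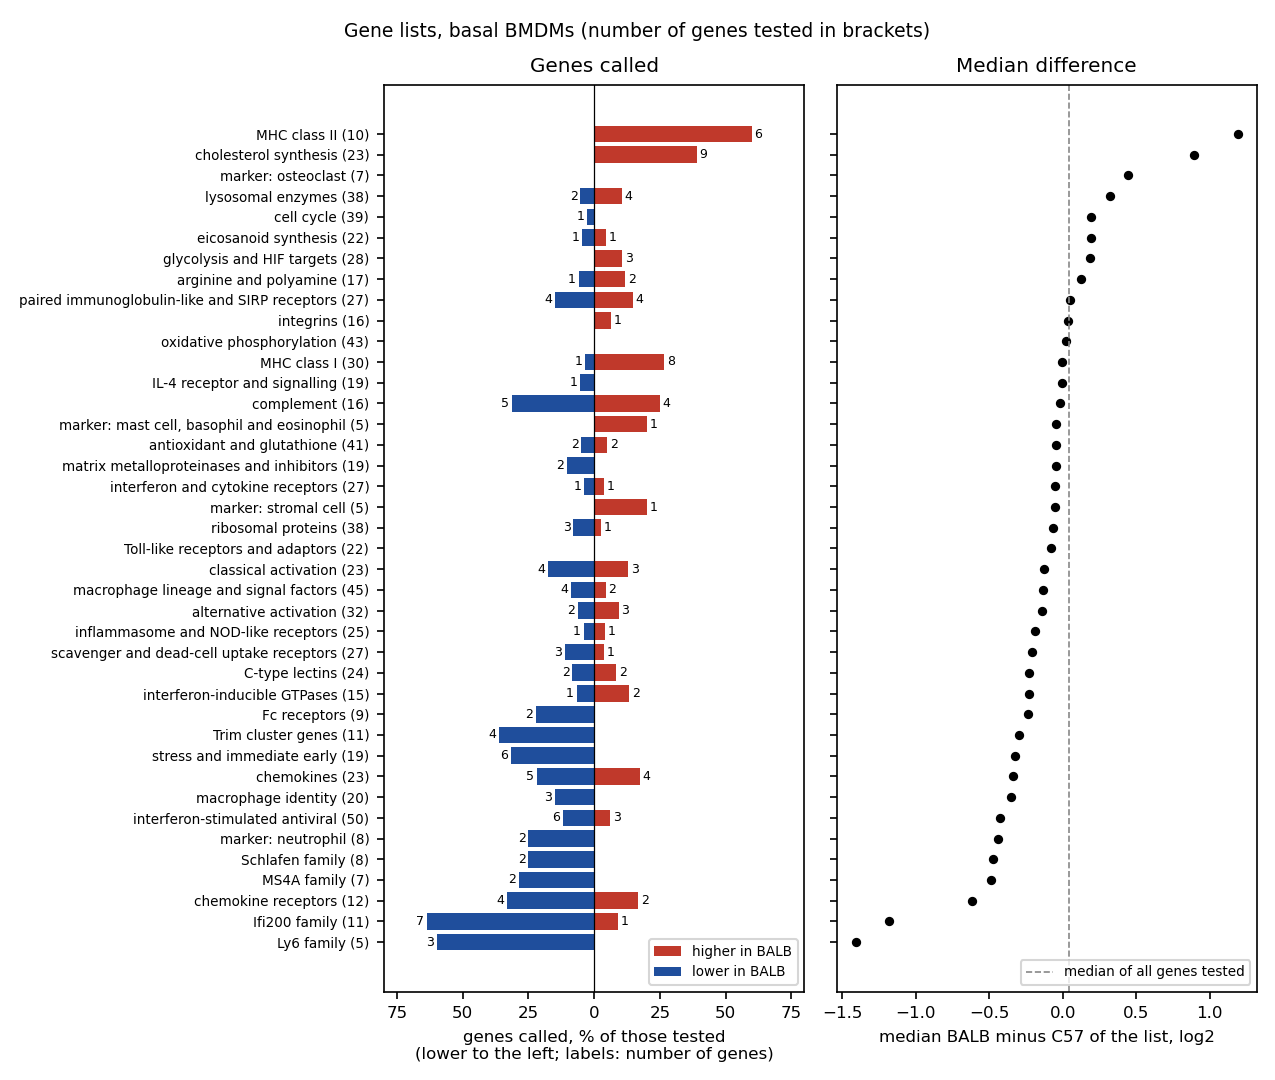
Gene lists with at least 5 genes tested, sorted by median difference. On the left, bars give the percentage of each list called higher (to the right) or lower (to the left) in BALB, with the number of genes beside each bar. On the right, points give the median BALB minus C57 difference on the log2 scale, with the median of all genes as a dashed line. MHC class II and cholesterol synthesis lie farthest to the right of that line, at 1.19 and 0.89, and the Ly6 and Ifi200 families farthest to the left.

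Of 19 stress and immediate early genes, 6 were lower in BALB and none was higher, with a median of -0.32. At the adjusted p alone 10 were lower and 2 higher. Of the 6, Dusp1, Ier2 and Junb have their own sequence, whereas the heat shock genes Hspa8, Hspa1a and Hspa1b share 38.6% to 62.3% of theirs. Junb, a subunit of the factor AP-1, was at 121, 140 and 105 TPM in C57 and at 28.2, 48.6 and 73.1 TPM in BALB (-1.37), and its relative Jund, not in the list, was at 99.7, 134 and 90.6 TPM against 25.6, 32.6 and 40.6 TPM (-1.69). The groups did not overlap, although the 3 BALB libraries differed among themselves. Outside this list, Gdf15, a secreted stress cytokine, was at 81.9, 116 and 82.1 TPM in C57 and 3.51, 6.06 and 8.91 TPM in BALB (-3.77), and Cebpb, a factor of macrophage identity and inflammation, at 108, 134 and 100 TPM against 25.6, 44.5 and 60.5 TPM (-1.44). In each of these 4 genes the highest C57 value was in replicate 2, the library set apart by the second principal component. Without it the differences were -1.26, -1.53, -3.61 and -1.32. The lowest BALB value of each was in BALB replicate 1. Without that library the differences were -1.01, -1.53, -3.48 and -1.11, in the same order. The part of either library in the spread was not tested. The phosphatase gene Dusp1, which ends stress kinase signals, was tighter, at 18.2, 23.2 and 18.2 TPM in C57 and 4.6, 4.82 and 4.1 TPM in BALB (-1.91).

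Some of the largest differences belonged to genes with close copies elsewhere in the genome. Of 557 called genes for which shared sequence could be measured, 130 (23.3%) shared at least 10% of their 50-base stretches with other genes, against 1286 of 11626 (11.1%) among all tested, and 17 of the 30 largest differences were of this kind. Without such genes 262 higher and 181 lower genes remained. Ribosomal protein genes, which have many processed copies, show it best. The 50 bases below are from the coding sequence of Rpl29 (GRCm38, chr9:106431177-106431226, plus strand, bases 211 to 260 of 480 coding bases), and are shown because the same 50 bases stand in 30 other genes.
Rpl29: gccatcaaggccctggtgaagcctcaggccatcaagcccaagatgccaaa

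Rpl29, a protein of the large ribosomal subunit, was at 183, 167 and 188 TPM in C57 and 0.196, 0.520 and 0.356 TPM in BALB, a difference of -7.06 and the largest fall of any called gene. It shares 35.1% of its stretches with other genes. Rpl26 (-6.81), Rpl37 (-6.81) and Rpl30 (-5.55) were low in BALB in the same way, while Rpl28 (5.93), Rps16 (5.26) and Rpl24 (4.19) were low in C57. Rps16, for example, was at 2.02, 2.47 and 1.85 TPM in C57 and 123, 116 and 114 TPM in BALB. Every cell needs these proteins. Whether a level near 0 reflects the RNA or the assignment of reads among copies was not tested. Among all 82 ribosomal protein genes tested, 5 were higher and 7 lower with a median of -0.05, and 11 of the 12 called were among the 65 that share sequence. Gapdh, an abundant glycolytic enzyme with many copies, was listed at only 1.42 ± 0.320 TPM in C57 against 2.00 ± 0.132 TPM in BALB. Of 26 pairs of called genes that overlap in the genome, 13 kept a constant ratio (SD of the log2 ratio under 0.1), among them Rpl26 with Gm15772 and Atp6v0c with Atp6v0c-ps2, so such a pair counts 1 difference in 2 rows. Both members of the Atp6v0c pair were lower in BALB, at -5.96 and -5.98.

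In each direction 5 genes were expressed in 1 of the strains alone, taken as at most 0.1 TPM in all 3 libraries of one strain and at least 2 TPM in all 3 of the other. In BALB these were the class I genes Gm11127 and H2-Q1, Ifi202b, Ifi44l and Fmo1, a flavin-containing monooxygenase. In C57 they were Vill, Trim12a, the purine nucleoside phosphorylase gene Pnp2, the peptidylarginine deiminase gene Padi4 and the zinc finger gene Zfp33b. Gm11127 was listed at 0 in all 3 C57 libraries and at 52.8, 55.0 and 49.7 TPM in BALB, with 63.8% of its sequence shared. Fmo1 was at 0, 0 and 0.060 TPM in C57 and 5.99, 4.48 and 4.89 TPM in BALB. Padi4 was at 2.82, 3.56 and 3.30 TPM in C57 and 0.058, 0.051 and 0 TPM in BALB.

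A minority of the called genes lay close to others. Chaining called genes whose starts were within 500 kb of the next gave 8 chains of at least 5 genes, which held 62 (10.8%) of the called genes. The chain with most genes, at chr17:34862602-36168537 in the MHC, held 17 called genes of 77 tested, 13 higher and 4 lower in BALB, from C2 and Aif1 through the H2-Q and H2-T blocks. Its members H2-Q6 and H2-Q8 overlap and kept a constant ratio, so they count 1 difference. A second chain in the MHC, at chr17:34092379-34344645, held the 5 class II genes H2-Oa, H2-Ab1, H2-Aa, H2-Eb1 and H2-Ea-ps, all higher, among 13 tested. The Ifi200 cluster at chr1:173591957-174031755 had 8 called of 10 tested, 1 higher and 7 lower. The leukocyte receptor cluster at chr7:3489076-4282928 had 8 of 22, with 5 higher and 3 lower. Among the higher, Gm14548, Pira1 and Pira11 overlap and kept a constant ratio, so they count 1 difference in 3 rows. The 2 chains on chromosome 6 were opposite in direction. At chr6:122605403-123247024 the genes Gdf3, C3ar1, Clec4a1 and Clec4n were lower and Slc2a3 was higher, while at chr6:124530344-125003097 the genes C1s1, C1s2, Eno2, Lrrc23 and Pianp were all higher. Pianp, a ligand of paired receptors, was at 8.46, 9.70 and 8.17 TPM in C57 and 93.7, 93.7 and 95.6 TPM in BALB (3.29). Chromosome 8 held the other 2 chains, with Gdf15 and Jund in one and Junb and Ier2 in the other. By chromosome, the share of tested genes called was highest on chromosome 17, with 51 of 673 (7.58%), and all 8 called genes of the 350 on the X chromosome were higher in BALB. Genes that share sequence weigh in these clusters, since only 3 chains were left without them.

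The basal levels in NOD, PWK and SPRET show which of the strains stood apart for each gene. A called gene was set to C57 alone when the means of all 3 other strains lay on the BALB side of the midpoint between C57 and BALB, and to BALB alone in the opposite case. This is a description with no test. Of the 573 called genes, 89 (15.5%) were C57 alone and 117 (20.4%) BALB alone, and the rest were divided. Among genes higher in BALB, 31 were C57 alone and 77 BALB alone, and among genes lower in BALB, 58 and 40. NOD lay on the BALB side for 287 genes, PWK for 252 and SPRET for 261.

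The C1q genes were of the C57-alone kind. C1qb, at 1180.5 TPM in C57 against 88.2 TPM in BALB, was at 83.7 TPM in NOD, 11.5 TPM in PWK and 3.81 TPM in SPRET. C1qc, at 619 TPM in C57 against 126 TPM in BALB, was at 142, 26.9 and 2.66 TPM in these strains. On the log2 scale the BALB levels of the C1q genes lay farther from SPRET than from C57. Cd5l, Vill, Chil3, Ifi202b and Slc7a2 were also C57 alone, and Slc7a2 was at 106 TPM in NOD, 85.9 TPM in PWK and 73.6 TPM in SPRET. Arg1 met the rule too, at 5.59 TPM in NOD, 20.2 TPM in PWK and 6.52 TPM in SPRET. However, its BALB level (61.1 TPM) lay farther from each of these, on the log2 scale, than from the C57 level (126 TPM). The called class II genes H2-Aa, H2-Ab1, H2-Eb1 and Cd74 were of the BALB-alone kind, while H2-Oa was divided, at 17.7 TPM in NOD, above the 10.5 TPM of BALB, and at 8.92 TPM in PWK and 0.886 TPM in SPRET. H2-Aa was at 201 TPM in NOD, 278 TPM in PWK and 122 TPM in SPRET, against 158 TPM in C57 against 535 TPM in BALB. Ctsl was at 231, 256 and 243 TPM in NOD, PWK and SPRET, close to the 293 TPM of C57 and far from the 1173 TPM of BALB, and Ctsh and Ifi44l likewise set BALB apart. H2-Ea-ps was divided, at 0.261 TPM in NOD, 0.0525 TPM in PWK and 60.1 TPM in SPRET. The NOD haplotype is also known to lack the I-E alpha chain. Hal was divided too, at 38.3 TPM in NOD, 0.182 TPM in PWK and 46.0 TPM in SPRET.

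**Figure D4:**
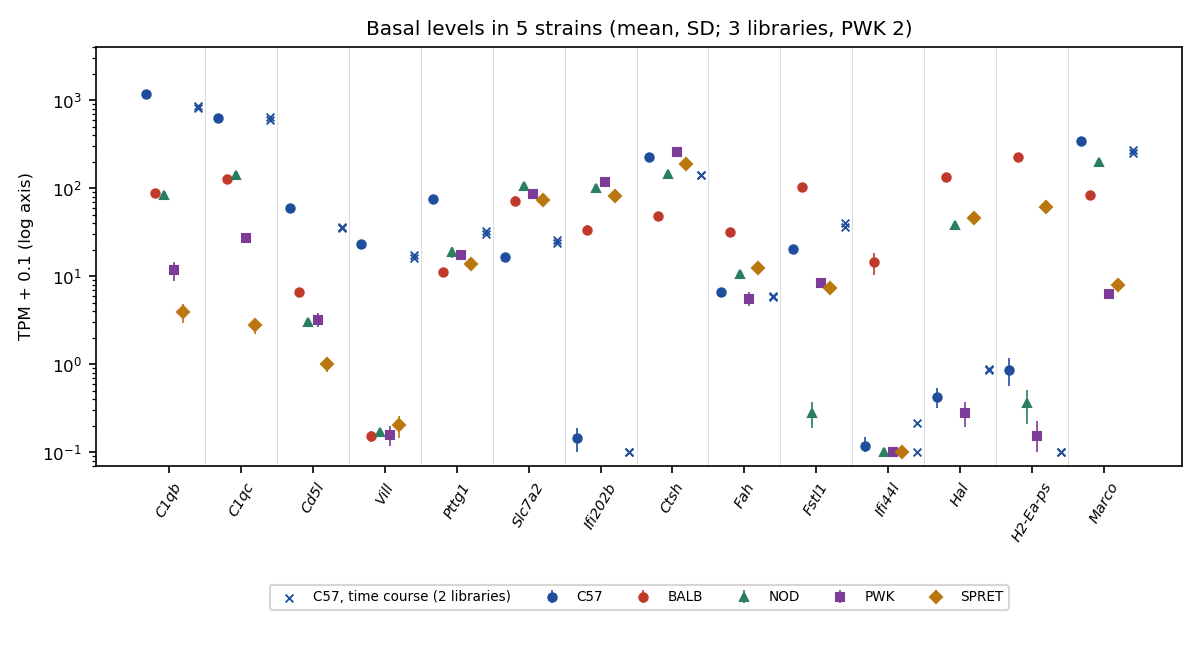
Basal level of 14 genes in 5 strains, as TPM + 0.1 on a log axis. Filled symbols are means with SD over 3 libraries (2 for PWK), coloured by strain, and crosses are the 2 C57 libraries of the time course, which come from a separately normalized table. By the midpoint rule C1qb, C1qc, Cd5l, Vill, Pttg1, Slc7a2 and Ifi202b set C57 apart from the other strains, and Ctsh, Fah, Fstl1 and Ifi44l set BALB apart. The strains grouped together could still differ widely, as C1qc in SPRET and Fstl1 in NOD show.

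The 2 basal C57 libraries of the time course, a separate experiment in a table normalized on its own, give another reading of the C57 levels. Both lay on the C57 side of the midpoint for 220 of the 315 genes higher in BALB (69.8%) and for 179 of the 258 lower (69.4%). BALB remained more than 2-fold from their mean, in the same direction, for 193 (61.3%) and 171 (66.3%). The other direction was seen for 22 and 16 genes. These 2 libraries differed by more than 2-fold from the C57 libraries of the 5-strain table in 20.4% of genes tested, 2090 higher and 336 lower, so experiments of the same strain also differed widely. C1qb was at 805 and 859 TPM in them, Insig1 at 22.6 and 21.9 TPM and H2-Aa at 130 and 127 TPM, each nearer to the 5-strain C57 values than to BALB. Ms4a4c, a membrane protein gene called lower in BALB (35.1, 28.7 and 31.3 TPM in C57, 9.69, 6.58 and 7.36 TPM in BALB), was at 1.23 and 1.10 TPM there, below both. S100a9 was at 0.178 and 0 TPM, also below both, and Ciita at 4.31 and 5.2 TPM, above both strain means. Tgfbr2 and Itgax, both called higher in BALB, were above both strain means there as well. Tgfbr2 was at 52.5 and 51.8 TPM and Itgax at 82.2 and 76.4 TPM.

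Markers of other cells that bone marrow cultures can hold were low or not called in most lists. Of 8 neutrophil genes tested, 2 were lower in BALB. S100a9 was at 14.7, 18.4 and 18.1 TPM in C57 and 2.92, 1.81 and 1.59 TPM in BALB (-2.55), and Lcn2 was at 86.6, 80.3 and 84.2 TPM against 31.1, 34.3 and 34.4 TPM (-1.31). The summed level of the 14 neutrophil genes was 209 to 236 TPM in C57 and 104 to 112 TPM in BALB. At the adjusted p alone 4 of the 8 tested were lower in BALB and none was higher, with a median of -0.44. Ltf and Ngp, made by maturing neutrophils, were below 0.3 TPM on average in both strains. Dendritic cell genes summed to 4.92 to 5.81 TPM in C57 and 10.2 to 10.4 TPM in BALB, with the migration receptor Ccr7 called higher at 1.55. Osteoclast genes, which differentiating macrophages share, summed to 691 to 759 TPM and 1096 to 1152 TPM with none of 7 called in limma (4 at an unadjusted p under 0.05, and 1 called without C57 replicate 1 or BALB replicate 3), and the protease gene Ctsk among them was at 394 ± 22.4 and 717 ± 25.4 TPM (0.86). At the adjusted p alone 3 of the osteoclast genes were higher and none was lower. B cell genes summed to at most 2.90 TPM, T and NK cell genes to at most 1.89 TPM, and none was called in limma (none and 2 at an unadjusted p under 0.05). Among 5 tested genes of mast cells, basophils and eosinophils, Mcpt8 was called higher (1.53), and among 5 stromal genes Pdgfrb (2.22). No erythroid gene passed the filter. The part of such cells in the differences above was not tested, and in bulk RNA fewer cells of a type and less RNA per cell cannot be told apart. Of 20 macrophage identity genes, 3 were lower in BALB, namely Fcgr1, Cebpb and Aif1, and Csf1r, the M-CSF receptor, was at 471 ± 25.7 TPM in C57 against 316 ± 15.1 TPM in BALB (-0.57), which was not called.

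Each list not described above held a small number of called genes. Over all genes tested, 2.65% were higher and 2.17% lower in BALB. Of the inflammasome and NOD-like receptors, Nlrp1b was higher and the pyrin gene Mefv lower among 25. Among 45 lineage and signal factors 2 were higher and 4 lower, among 19 metalloproteinases and inhibitors 2 were lower (Adam8 and Mmp27), and among 16 integrins Itgax was higher. Schlafen genes had 2 lower of 8, the MS4A family 2 lower of 7 and eicosanoid synthesis 1 higher (Ptgs2) and 1 lower (Ltc4s) of 22. At the adjusted p alone, 6 Schlafen genes were lower and none was higher, and 4 MS4A genes were lower and 1 higher. Of 27 cytokine receptor genes, the TGF-beta receptor gene Tgfbr2 was higher, at 16.8, 18.7 and 16.3 TPM in C57 and 46.0, 42.7 and 42.8 TPM in BALB (1.30), and the IL-3 receptor gene Il3ra was lower (-1.20). Without BALB replicate 1 the differences of Il3ra (-0.96) and Ltc4s (-0.91) were under 2-fold, as was that of Ltc4s without BALB replicate 2 (-0.96) and of Mmp27 without BALB replicate 3 (-0.99).

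After 24 hours of IL-4 the strain difference was measured in other libraries of the same strains. No source used here says whether they share mice or cultures with the basal libraries. After IL-4, 285 genes were higher in BALB (2.39%) and 357 lower (3%). Of the genes called under basal conditions, 360 were called again in the same direction, which is 62.8% of the basal calls and 56.1% of the 642 calls after IL-4, and none was called in the opposite direction. The sign was kept in 542 of the 573. The median difference of the genes higher in BALB was 1.33 under basal conditions and 1.20 after IL-4, and that of the genes lower in BALB was -1.45 and -1.29. The basal libraries chose these genes, so both medians are given as a description.

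C1qb differed by -3.73 under basal conditions and by -4.06 after IL-4 (adjusted p of the shift 0.31). The differences of Hal (6.68, then 6.05) and H2-Aa (1.76, then 1.47) were smaller after IL-4, with shifts of -0.63 (adjusted p 5.8e-05) and -0.29 (adjusted p 0.0056), and stayed past 2-fold. The sterol genes were higher in BALB after IL-4 too, with 14 of 23 called and Insig1 at 3.02. The difference itself shifted by more than 2-fold between the conditions in 177 genes (1.49%), of which 60 had been called under basal conditions. Slc7a2, at 2.06 under basal conditions, was at 0.25 after IL-4, and Ctsl went from 2.00 to 0.68. Ccl7 went from -1.82 to -4.48 and Ccl2 from -1.66 to -3.37, so their gap widened. Gdf15, Junb, Jund and Cebpb, the genes with spread between libraries, went from -3.77, -1.37, -1.69 and -1.44 to -1.47, -0.22, -0.36 and -0.34.

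**Figure D5:**
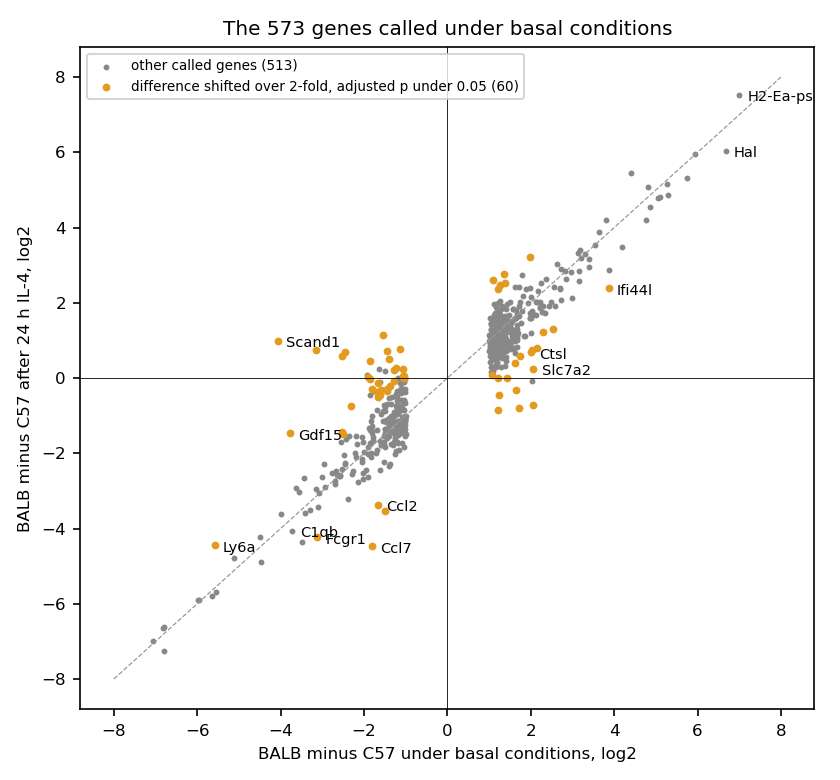
BALB minus C57 difference after 24 hours of IL-4 (vertical axis) against that under basal conditions (horizontal axis), both on the log2 scale, for the 573 genes called under basal conditions. The dashed line marks equal differences, and orange points are the 60 genes whose difference shifted by more than 2-fold at an adjusted p under 0.05. Most points lie in the quadrants of equal sign, with Slc7a2 and Ctsl nearer 0 after IL-4 and Ccl7 farther from it.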

How the data were processed

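PolyA RNA of BMDMs was sequenced as stranded libraries. According to the study's methods, the authors mapped reads with STAR to genomes made for each strain from mm10, moved the positions to mm10, and counted exon reads per gene with HOMER. The values used here are the deposited TPM, made by the authors per library for 24537 genes. How reads that map to several places were treated is not given in the sources used here. The table's other columns hold the authors' own DESeq2 comparisons of IL-4 with basal cells, and were not used. No read counts were used.

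Log2(TPM + 1) values of 11907 genes (at least 1 TPM in at least 2 of 29 libraries) were fitted with limma 3.58.1 (R 4.3.3), a mean per group, with 19 residual and 4.99 prior degrees of freedom and a trend in the prior variance. Adjusted p-values (Benjamini-Hochberg) cover all genes tested, and a gene was called at over 2-fold with adjusted p under 0.05. The fit was tested on simulated data with 3 against 3 libraries, in which all of 200 genes changed by 1.5 on the log2 scale were recovered (100%). With a change of 2 all were recovered as well, and 1 unchanged gene was called. The changed genes had middle levels, so genes near 1 TPM were not covered. Noise was independent between libraries, and sharing of reads between copies was not simulated. Fewer than 3 libraries a group entered only for PWK. Depth is the number of tags named in the file headers, and its counting error is not carried by the TPM.

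The gene lists and the comparisons were chosen with earlier results of these data known. Genes named are the 10 largest differences in each direction at 10 TPM or more, up to 4 called genes of a list, 3 of a chain and 6 expressed in 1 strain, 7 genes of known interest, and further genes chosen after their values were seen where a group is described (for example Il4ra, Csf1r, Gapdh and H2-Ab1). Some items are not reported here. Shared sequence is the percentage of a gene's 50-base transcript stretches (GENCODE vM21) also present in other genes. Promoters are from RefSeq (GRCm38.p6). Alternatives were other pseudocounts, filters, scalings, sample sets, fold thresholds, a replicate block and leaving out each library. The replicate numbers did not pair the strains: deviations of same-numbered C57 and BALB basal libraries correlated at 0.01, -0.08 and 0.04. Between basal and IL-4 libraries of the same number they correlated at 0.03, -0.09 and 0.07 in C57. In BALB these values were 0.33, 0.15 and 0.09, and basal replicate 3 with IL-4 replicate 2 was at 0.21. The main fit held no term for a link between basal and IL-4 libraries. With the replicate block 179 genes shifted between conditions, against 177 without it.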

Additional observations from a re-analysis of the deposited data

Results flagged for a closer look

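For 15 of the named genes the BALB minus C57 difference after 24 hours of IL-4 differed from the basal one by more than 2-fold at an adjusted p under 0.05 (limma interaction contrast, 3 libraries per group). Positive values mean that BALB was relatively higher after IL-4. The shift was 2.30 for Gdf15 (adjusted p 3.6e-05), 1.33 for Jund (0.011), 1.15 for Junb (0.047), 1.10 for Cebpb (0.029), 1.16 for Clec4n (7.3e-11), 1.13 for Ly6a (3.1e-04), 1.10 for Ltc4s (8.0e-04) and 1.09 for Cxcl10 (3.0e-05), all lower in BALB under basal conditions. It was -2.66 for Ccl7 (3.8e-13), -1.71 for Ccl2 (2.5e-05) and -1.11 for Fcgr1 (2.8e-07), where BALB was lower before and fell further behind. It was -1.81 for Slc7a2 (2.0e-12), -1.48 for Ifi44l (2.7e-06), -1.32 for Ctsl (1.1e-12) and -1.17 for Ptgs2 (1.1e-07), where BALB was higher before. Gdf15, Jund, Junb and Cebpb were highest in replicate 2 among the basal C57 libraries and lowest in replicate 1 among the basal BALB libraries. The part of either library in their shift was not tested.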

How the results depend on the processing

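No named gene changed sign under any alternative, and 34 of 140 crossed the call threshold under at least 1, mostly with a pseudocount of 5 TPM. With a pseudocount of 0.1 TPM, 590 genes were higher and 428 lower in BALB under basal conditions, 529 and 563 after IL-4, 652 were called in the same direction in both and 296 shifted between conditions. With 5 TPM these counts were 124, 133, 127, 186, 179 and 85, by which 257 (44.9%) of the basal calls were kept. The other refits kept 82.2% to 99.8% of the basal calls. A fold threshold of 1.5 gave 835 higher and 724 lower, and 4-fold gave 63 and 65. Median-ratio scaling, which moved the median of all genes to 0, gave 272 higher and 277 lower, so 49.5% of calls were higher instead of 55.0%. Leaving out each library in turn gave 308 to 327 higher and 246 to 278 lower under basal conditions, and 277 to 299 and 345 to 381 after IL-4. The calls of Arg1, Irgm2, Gsta2, Rps2, Rpl27, Mmp27, Ltc4s and Il3ra were lost when a library was left out. With the replicate block 314 genes were higher and 258 lower under basal conditions. Chaining within 1000 kb gave 16 chains, and leaving out genes that share sequence, chosen after seeing the data, gave 3. When the other strains had to lie within 1.5-fold of one mean, 23 called genes were C57 alone and 36 BALB alone. The causes of these shifts were not tested. The depth of 7.61 to 19.0 M tags limits genes near 1 TPM, where the pseudocount also sets the fold.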
